A study of Mus musculus with 4 samples.

Results

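Conventional CD4 T cells are the helper T cells of the tumour: T cells that carry the CD4 co-receptor and do not express Foxp3. They were taken from single-cell transcriptomes by raw counts of unique molecular identifiers (UMIs, each the count of 1 captured RNA molecule). Cells with fewer than 200 genes, or with 20% or more of their UMIs from mitochondrial genes, were left out first. A kept cell was a member with at least 2 UMIs of Cd3d, Cd3e and Cd3g together, at least 1 UMI of Cd4, and none of Cd8a, Cd8b1, Foxp3 or Lef1. Members also had under 2 UMIs of Il13, Ccl1 and Penk together, under 2 of Mki67 and Top2a, and at most 1 of Csf1r and Adgre1. This rule found 250 members among 26435 kept cells. Cells with a captured Foxp3 or Lef1 UMI, or with 2 or more UMIs of Mki67 and Top2a, were therefore outside the group by construction. Regulatory, naive-like or cycling T cells in which these RNAs were not captured can remain in it. The levels of the genes named in the rule are not results.

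The cells came from orthotopic tumours of the MT4788 breast line in FVB mice (genotype WT), dissociated on day 4, enriched for CD45 with magnetic beads and loaded at 10000 cells per condition for 10x 3' RNA sequencing. The control tumour had saline with PBS, the phenformin tumour saline with phenformin, the poly I:C tumour poly I:C with PBS, and the combination tumour poly I:C with phenformin. Each treatment had 1 library, so there was no replicate and no test between treatments, and every 95% interval covers counting error only. Cells of 1 library are not replicates of a treatment.

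CD4 T cells recognise peptides on MHC class II and direct other immune cells through cytokines and through surface ligands of the TNF family, and after antigen contact they display checkpoint receptors such as PD-1, encoded by Pdcd1. Cells that stay in tissue usually lose the genes of lymph node homing and of exit into blood, such as Ccr7, S1pr1 and Klf2, and gain residency genes such as Cxcr6. Poly I:C imitates the double-stranded RNA of viruses and is sensed by Toll-like receptor pathways that lead to interferon production. Phenformin, a drug of the biguanide class, blocks respiratory complex I in mitochondria.

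The control, phenformin, poly I:C and combination libraries gave 73, 54, 37 and 86 members. The summed member UMIs were 376083, 309402, 197520 and 385550, and the median member held 4178, 4152.5, 4338 and 3256 UMIs. Depth was therefore lowest per cell in the combination library, and the sum was smallest for poly I:C. Of kept cells 34, 34, 47 and 49 carried a barcode also found in another library, among them no member of the control or phenformin library and 1 of each poly I:C-treated library. At the edge of the rule, 25, 24, 17 and 46 members had a single Cd4 UMI, while 146, 101, 155 and 298 cells met every other condition without any Cd4 UMI. Membership in this group thus rested on few Cd4 molecules per cell, and CD4 T cells whose Cd4 RNA was not captured are missing from it.

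Some members held RNA of another cell type as well. A member with at least 10 UMIs of tumour epithelial and matrix genes, 10 of macrophage genes, 5 of neutrophil genes, 5 of dendritic cell genes or 20 of MHC class II genes was called a mixed droplet, by a rule chosen after the data were seen. There were 5, 1, 3 and 8 such members in the control, phenformin, poly I:C and combination libraries, 17 in all. They were 6.85%, 1.85%, 8.11% and 9.30% of members but held 18.0%, 13.1%, 19.5% and 23.8% of member UMIs. The gap was wide for tumour genes: the droplets beyond the tumour minimum had at least 90 UMIs, whereas no other member of any library had more than 3. For neutrophil genes it was wide as well, at 35 or more against at most 2 UMIs. Other gaps were narrower, such as 13 against 8 macrophage UMIs in the combination and 28 against 17 MHC class II UMIs in poly I:C. In control a member with 9 macrophage UMIs stayed just under the minimum. The doublet caller Scrublet marked 109, 77, 1 and 1 kept cells, and thus did not work in the poly I:C-treated libraries. It marked 1 of the 17 mixed droplets and no other member. The gene values below leave the 17 out and rest on 68, 53, 34 and 78 members with 308592, 268850, 159060 and 293940 UMIs. For named genes whose call differs, the values over all members are given beside them.

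**Figure D1:**
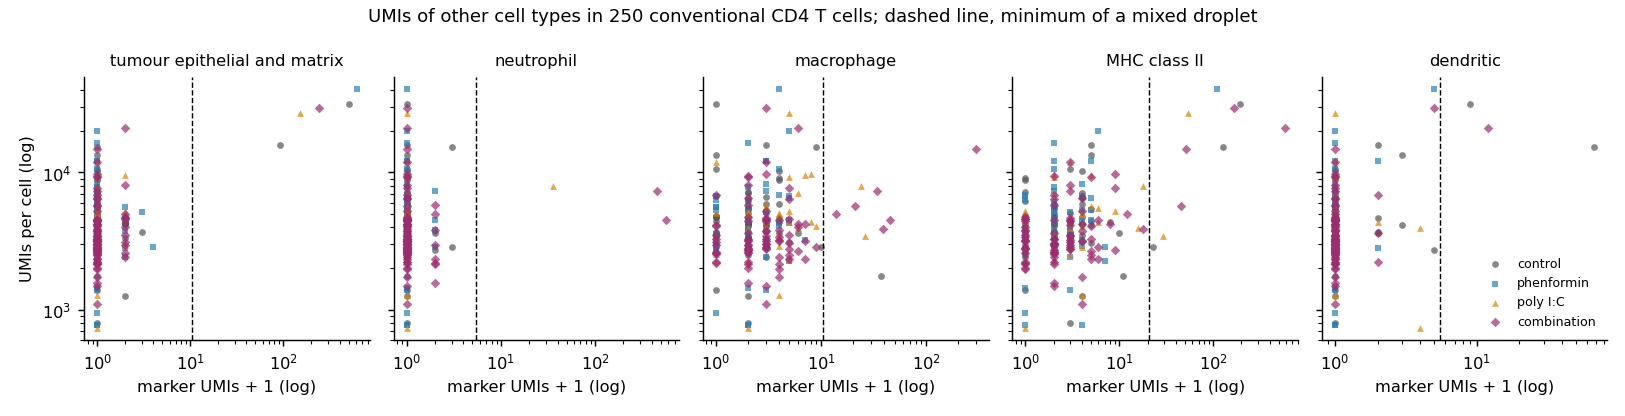
Each point is 1 of the 250 conventional CD4 T cells, with its UMIs of 5 other cell types plus 1 on a log axis and its total UMIs on a log axis. The dashed line marks the minimum of a mixed droplet, and the 17 cells beyond it in any panel include the deepest cells, up to 40552 UMIs.

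Without mixed droplets, T cell markers were present and those of several other cell types were absent or rare. Markers of regulatory T cells were not part of this check. Il2ra or Ikzf2, both common in regulatory T cells, had a UMI in 45.6% (control) to 62.3% (phenformin) of members. The check therefore does not separate members from regulatory T cells whose Foxp3 RNA was not captured. The 8 T cell genes Cd3d, Cd3e, Cd3g, Cd2, Cd5, Cd28, Lck and Icos summed to 4352 to 5162 CPM (UMIs of a gene per 1e6 UMIs of all members) in the 4 libraries, and each was found in at least 29.4% of members. Cd163l1 and Sox13 of gamma delta T cells, Ncr1 of natural killer cells, Ms4a1 of B cells, Siglech and Klk1 of plasmacytoid dendritic cells and Flt3 of dendritic cells had no UMI in any library. Other genes checked for such cells were present. H2-Aa of dendritic cells was found in 32.4% of control, 28.3% of phenformin and 32.4% of poly I:C members. Zbtb16, Klrb1c and Cd79a were found in at most 2.94%, 1.89% and 1.89% of members of any library. S100a8 and S100a9 of neutrophils reached at most 5.13%, and the tumour genes Krt5, Krt14, Krt8 and Epcam at most 7.55%. Summed CPM of the macrophage genes C1qa, Apoe and Lyz2 was 149 for control, 205 for phenformin, 377 for poly I:C and 344 for combination members. In macrophage-gated cells (at least 3 UMIs of Csf1r and Adgre1, no Cd3 UMI) the same sum was far higher, and the members' level equalled 1.5%, 1.59%, 1.46% and 1.63% of it. The values that follow cover RNA of macrophages only, and RNA from other cells, such as CD8 T cells, was not tested. RNA of macrophages at that share would give the members 54.2 CPM of Ccl5 and 6.50 CPM of Isg15 in the combination library, where 674 and 218 CPM were measured. For Gadd45b, Itgb1, Nrp1 and Klf2 it would give under 4 CPM in each library. For Tyrobp, Fcer1g and Cd74, genes of myeloid and antigen-presenting cells, it would give 40.5, 46.7 and 245 CPM of the 109, 71.4 and 293 CPM measured in the combination library, and these genes are not described further.

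Receptors that T cells gain on activation were widespread among the members. Ctla4, an inhibitory receptor, had a UMI in 89.7% of control, 90.6% of phenformin, 94.1% of poly I:C and 80.8% of combination members, against 2.87% to 7.31% of macrophage-gated cells. The medians behind these shares were 4149, 4047, 4328.5 and 3152.5 UMIs in members and 9357.5 to 12612 in macrophage-gated cells. Icos, a co-stimulatory receptor, had a UMI in 82.4%, 71.7%, 82.4% and 74.4% of members, against 1.66% to 2.59% of macrophage-gated cells. With every member thinned to 2000 UMIs, Ctla4 was found in 78.1% to 86.2% of members and Icos in 56.2% to 70.8%. The TNF receptors Tnfrsf4 (OX40) and Tnfrsf18 (GITR) were found in 63.1% to 84.4% and in 61.5% to 78.1% of thinned members, and the transcription factor Rora in 67.1% to 78.1%. Thinning left out 3, 5, 2 and 5 members below 2000 UMIs.

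Several defining genes of the helper subsets were rare, while Rora, Pdcd1 and Gata3, which are on the lists of Th17, follicular helper and Th2 genes, were common. Il17a and Il4, the defining cytokines of Th17 and Th2 cells, had no UMI in any library, which allows a share of up to 4.41%, 5.66%, 8.82% and 3.85% of members with a UMI. For Il4 this limit covers members only. The rule capped the UMIs of Il13, Ccl1 and Penk, so Th2 cells with Il13 RNA could be left out beforehand. Whether Th2 cells were rare among all CD4 T cells was therefore not tested. Tbx21, the Th1 factor, was found in 5.88%, 9.43%, 5.88% and 5.13% of members, against at most 0.630% of macrophage-gated cells. Cxcr5 and Il21 of follicular helper cells had 1 UMI each in the control and in the combination and none in the other libraries. Gata3, a factor of Th2 and of regulatory T cells, was commoner, in 45.6%, 45.3%, 41.2% and 29.5% of members, against at most 1.23% of macrophage-gated cells.

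Other effector genes were also sparse. Cd40lg, the helper ligand for B cells and dendritic cells, had 11, 1, 7 and 7 UMIs in the control, phenformin, poly I:C and combination libraries. Ifng had 3, 5, 1 and 21 UMIs, and 85.7% of those in the combination came from 1 member. Cxcr3, a receptor for interferon-induced chemokines, had 18, 13, 2 and 16 UMIs. Il7r, which carries survival signals to resting and memory T cells, was common and even, at 706, 658, 736 and 766 CPM. Ifit3, an interferon-stimulated gene, had 2 UMIs in control, 1 in phenformin and none in the other libraries. The stress genes Hspa1a and Fos had 1 to 10 and 5 to 13 UMIs per library.

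**Figure D2:**
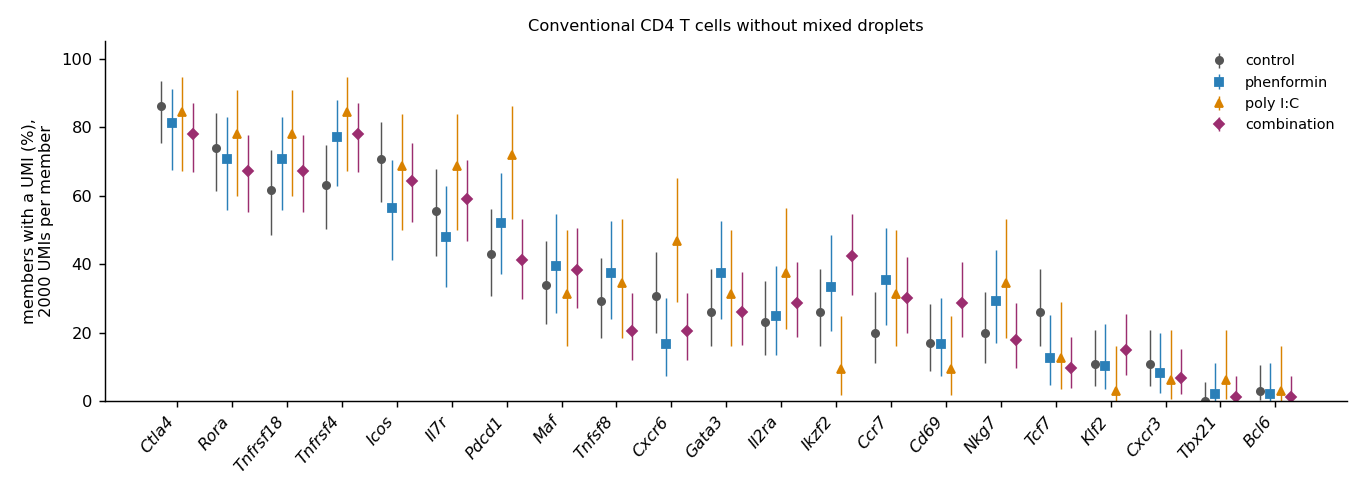
Points are the percentage of conventional CD4 T cells with at least 1 UMI of each gene after thinning to 2000 UMIs, without mixed droplets, and bars are exact binomial 95% intervals. Ctla4 and Rora stand near the top and Tbx21 and Bcl6 at most at 6.25% in any library.

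Set beside Foxp3 regulatory T cells and CD8 T cells of the same libraries, gated in the same way and also without mixed droplets, the members differed in direction for several genes in 4 of 4 libraries. These levels are a description, since the gates use related genes and no test was made. Tnfsf8 (CD30 ligand) was at 441, 472, 333 and 405 CPM in control, phenformin, poly I:C and combination members, at most 25.2 CPM in regulatory and at most 34.0 CPM in CD8 T cells. Tnfsf11 (RANKL) was at 156, 238, 346 and 160 CPM, at most 12.6 CPM in regulatory and at most 20.8 CPM in CD8 T cells. Both ligands of the TNF family were thus highest in the conventional cells among these 3 kinds of T cell in every library. Nrp1, Itgb1, Tcf7, Rora, Bhlhe40, Igfbp7, Ramp1 and Cd69 were likewise higher in the members than in both other groups in 4 of 4 libraries. Ikzf2 (Helios) was at 288, 283, 107 and 595 CPM in members and at 824 to 2133 CPM in regulatory T cells, and Il2ra, the interleukin-2 receptor alpha chain, was at 260 to 313 CPM in members and at 1122 to 1690 CPM in regulatory T cells. Pdcd1 was higher in members than in regulatory T cells in 4 of 4 libraries, and higher than in CD8 T cells in 1 of 4. The cytotoxic genes Nkg7 and Gzmb were lower than in CD8 T cells in 4 of 4.

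Members also differed among themselves. Pdcd1 had a UMI in 69.1%, 60.4%, 76.5% and 41.0% of members of the control, phenformin, poly I:C and combination libraries. Members with a Pdcd1 UMI had more Cxcr6 in each library: 551 against 347 CPM in control, 356 against 120 in phenformin, 784 against 61.0 in poly I:C and 466 against 39.4 in the combination. Cxcr6 is a chemokine receptor of tissue-resident T cells. Klf2, the factor that keeps T cells in circulation, was lower in members with Pdcd1, at 43.4 against 218 CPM in control, 35.6 against 250 in phenformin and 91.8 against 282 in the combination, and in poly I:C at 0 against 3 UMIs. S1pr1, the exit receptor that Klf2 controls, and Satb1, a chromatin organiser of T cells, were lower with Pdcd1 in 4 of 4 libraries as well, as were Tcf7, Ccr2, Cd27, Ikzf2 and Il2ra. Nkg7, Rora, Bhlhe40, Icos and Ramp1 were higher with Pdcd1 in 4 of 4. Members with Pdcd1 were somewhat deeper, with medians of 4387, 4464.5, 4380 and 3351.5 UMIs against 3615, 3214, 4191.5 and 2988, and the part of depth in the split was not tested.

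A split by Il2ra or Ikzf2, both common in regulatory T cells, separated 45.6%, 62.3%, 50% and 51.3% of members. Il1rl1, the interleukin-33 receptor, was higher in members with either gene, at 393 against 254 CPM in control, 366 against 241 in phenformin and 440 against 54.7 in the combination, and in poly I:C at 33 against 0 UMIs. Gata3, Tnfrsf9 and Cd27 were higher on that side in 4 of 4 libraries, and Gzmb too, although 92.0% of the control's Gzmb UMIs came from 1 member. Whether members with these genes lacked Foxp3 RNA or it was not captured was not tested. The gene comparisons were also made without them, and the followed ratios counted as turned are named with each comparison.

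Conventional CD4 T cells made up a smaller share of kept cells in the poly I:C library than in the other libraries. The share was 1.20% of kept cells (exact 95% interval 0.940 to 1.504) in control, 0.990% (0.745 to 1.29) in phenformin and 0.559% (0.394 to 0.770) in poly I:C. Combination members were 1.04% (0.833 to 1.28). The poly I:C interval lies below those of the control and the combination and overlaps that of phenformin. With at least 2 Cd4 UMIs required, the shares were 0.788%, 0.550%, 0.302% and 0.484%, so the combination then lay nearer to poly I:C. These are shares of CD45-enriched cells, and the number of cells per tumour was not measured. CD4 cells with a Lef1 UMI, outside the rule, were a further 0.541%, 0.495%, 0.272% and 0.786% of kept cells. Of T cells, defined by Cd3 UMIs alone, members were 4.49% in control, 3.62% in phenformin, 1.71% in poly I:C and 2.81% in the combination. The cells gated as CD8 were 6.35%, 7.52%, 12.98% and 11.8% of kept cells in the same order, so the CD4 share of CD4 plus CD8 cells was 15.9%, 11.6%, 4.13% and 8.08%. Foxp3 regulatory T cells were also fewest with poly I:C, at 0.317% of kept cells against 0.820%, 0.935% and 0.822% in control, phenformin and combination. The balance of conventional to regulatory cells was close in all libraries, with members at 59.4%, 51.4%, 63.8% and 55.8% of both and overlapping intervals.

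**Figure D3:**
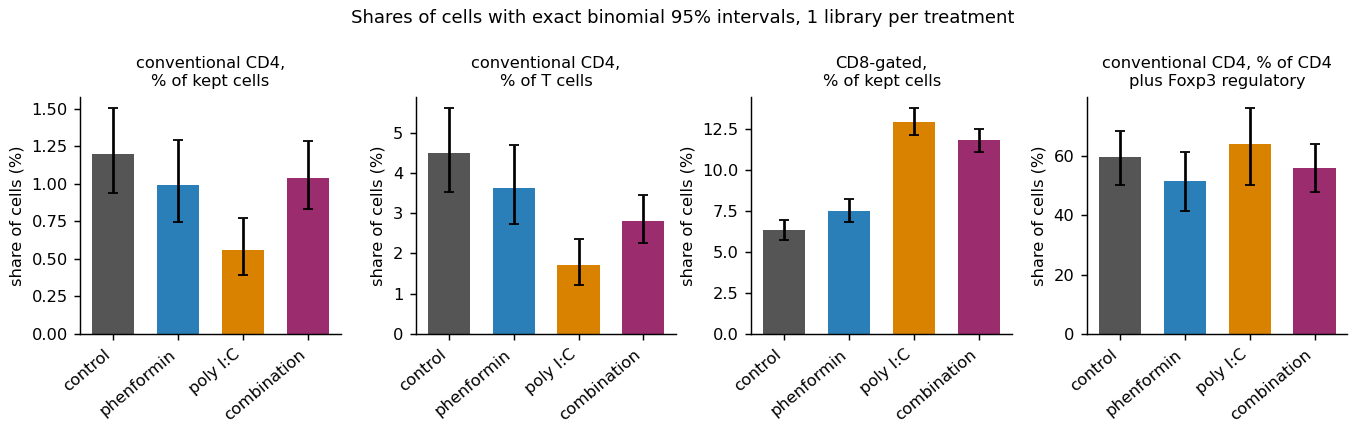
Bars are shares of cells in each library and error bars exact binomial 95% intervals. The conventional CD4 share of kept cells is lowest in the poly I:C library at 0.559%, where the CD8 share is 12.98%.

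Gene levels were compared as ratios of CPM summed over the members of a library. A gene was compared with at least 30 CPM and 20 UMIs in the higher library, and called with at least a 1.5-fold ratio and a 95% interval that leaves out 1. Over all members 1 UMI was 2.66 CPM in control, 3.23 in phenformin, 5.06 in poly I:C and 2.59 in the combination. Genes near the 20 UMI minimum thus enter more readily when higher in the deeper library. This tilts calls and medians, also of lists, towards lower in poly I:C over control and higher in the combination over poly I:C. The size of the tilt was not tested. The comparisons with control share that library, so their values are given side by side and their overlap is not read. Over all members the genes with the highest and lowest ratios were mostly genes of tumour cells and neutrophils, such as Igfbp5, Krt18, Lcn2, S100a8 and S100a9, which the mixed droplets carried. The named genes were therefore ranked without mixed droplets, by the same rule with 2 added conditions: a UMI in at least 15% of members of the higher library and at most 30% of its UMIs in 1 member. Values under any other setting, such as without members that had an Il2ra or Ikzf2 UMI, were computed over all members.

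Phenformin compared with control gave lower homing and adhesion receptors and higher Ccr7 in conventional CD4 cells. Of the compared genes, 5.66% were called higher and 7.68% lower without mixed droplets (5.88% and 8.56% over all members), and the median log2 ratio of all of them was -0.07. Ccr7, which guides T cells to lymph nodes, was at 224 CPM in control and 796 CPM in phenformin, a ratio of 3.56 (2.70 to 4.74). It was found in 25% and 37.7% of members, against 9.31% and 7.67% of macrophage-gated cells. Of 13 compared chemokine and homing receptors, Ccr7 was the only one called higher and 7 were called lower, with a list median of -0.76. Cxcr6 was at 499 CPM in control and 268 CPM in phenformin, a ratio of 0.537 (0.400 to 0.714). Ccr2, S1pr1, S1pr4, the integrin subunit Itgal, the selectin ligand Selplg and the CGRP co-receptor Ramp1 were the other 6, at ratios of 0.347 to 0.587. The residency and adhesion genes Itgb1 and Nrp1 were also lower, at 0.649 (0.502 to 0.833) and 0.476 (0.309 to 0.718). Over all members Itgb1 was at 0.750 and was not called. Without members that had an Il2ra or Ikzf2 UMI the list median was -0.31 and Ccr2 was at 1.01 of control, and with equal weight for each member Ccr2 was at 1.40.

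Tcf7, a factor of naive and memory T cells, was at 194 CPM in control and 78.1 CPM in phenformin, a ratio of 0.402 (0.232 to 0.670). Ccr7 and Tcf7, both on the list of naive and recirculating genes, thus went in opposite directions, and the list of 10 compared genes had 1 called higher, 2 lower and a median of -0.00. The stress and NF-kB genes Gadd45b (ratio 3.09), Map3k8 (5.05), Nfkbib (3.28) and Bcl2l1 (3.65), an anti-apoptotic gene, were among the 10 genes with the highest ratios. Over all members Nfkbib was at 1.94 times control. Vdr, the vitamin D receptor, and Rasal3, a Ras GTPase activator of T cells, were among the 10 lowest, at 0.248 and 0.191. Vdr had 37 UMIs in control and 8 in phenformin, and Rasal3 24 and 4, so both rest on few molecules.

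A few nuclear genes of the respiratory chain were higher with phenformin, and their lists lay above the median of all genes, as they also did with poly I:C. Of 33 compared genes of complexes II to V and cytochrome c, 5 were called higher and none lower, with a median of 0.40. Cox7a2, a subunit of cytochrome oxidase, was at 240 CPM in control and 394 CPM in phenformin, a ratio of 1.64 (1.21 to 2.24). Cycs, Cox7b, Atp5j and Sdhb were the other 4. Of 33 compared complex I genes, the target of phenformin, Ndufa3 and Ndufa4 were called higher and Ndufa6 lower, with a median of 0.27. Over all members Sdhb, Ndufa4 and Ndufa6 were not called. With each member thinned to 2000 UMIs, Cycs was at 0.939 of its control level, and without Il2ra or Ikzf2 members Ndufa3 was at 0.938. Set beside these values, poly I:C over control had 6 of 30 compared genes of complexes II to V and cytochrome c called higher and none lower, with a median of 0.13. Its complex I list had 3 of 25 genes called higher and 1 lower, with a median of 0.11, beside -0.26 for all genes. Of all genes compared for poly I:C over control, 6.93% were called higher and 15.3% lower.

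Poly I:C compared with control gave higher Pdcd1, Tnfrsf4 and Cd70 and lower Klf2 and Gbp2. Of compared genes 6.93% were called higher and 15.3% lower (6.61% and 16.5% over all members), with a median log2 ratio of -0.26 over all of them, and this library had the fewest members. Pdcd1 was at 612 CPM in control and 1182 CPM in poly I:C members, a ratio of 1.93 (1.57 to 2.37). Tnfrsf4, which sustains helper T cell survival, was at 1040 and 2075 CPM, a ratio of 1.99 (1.70 to 2.33). Tnfsf11 was 2.22 times (1.48 to 3.35) the control level. Cd70, the ligand of CD27, was at 19.4 CPM in control, 89.3 in phenformin, 296 in poly I:C and 47.6 in the combination. Its poly I:C ratio of 15.2 (6.48 to 43.5) rests on 47 UMIs in 8 of 34 members. Its phenformin ratio over all members was 4.17, and 0.821 without members that had an Il2ra or Ikzf2 UMI.

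Of 10 compared naive and recirculating genes, Klf2, Tcf7, Satb1 and Foxo1 were called lower and Ccr7 higher with poly I:C, with a median of -0.62. Klf2 had 27 UMIs in control and 3 in poly I:C, all 3 in 1 member, a ratio of 0.216 (0.0419 to 0.701). Satb1 was at 207 and 75.4 CPM, a ratio of 0.364 (0.179 to 0.680), and Tcf7 was at 0.291 (0.127 to 0.590) of its control level. Ccr7 was at 591 CPM in poly I:C members, 2.64 times (1.92 to 3.66) its control level, or 1.66 times over all members. Foxo1, a factor that maintains naive T cells, was not called over all members. Thinned to 2000 UMIs the list median was 0.33, and without members that had a UMI of Csf1r, Adgre1 or C1q genes it was 0.25 and Tcf7 was at 1.05 of control, so the direction of the list was not stable. Ikzf2 was at 288 CPM in control and 107 CPM in poly I:C members, a ratio of 0.371 (0.207 to 0.627).

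Genes that interferon induces were not higher as a group in the poly I:C members on day 4. Of all compared genes 6.93% were called higher and 15.3% lower, with a median of -0.26 (6.61%, 16.5% and -0.27 over all members). Of 10 compared type I interferon-stimulated genes none was called higher and 2, Ifi203 and Shisa5, were called lower, with a median of -0.66. Over all members 4 of 14 were called lower with a median of -0.50, and the median was -0.02 with members thinned to 2000 UMIs. Of 8 compared interferon-inducible GTPases, which act against pathogens inside cells, Gbp2 and Gbp4 were called lower and none higher, with a median of -0.40. Over all members 4 of 9 were called lower, with a median of -0.52. Gbp2 was at 136 CPM in control, 108 in phenformin, 12.6 in poly I:C and 106 in the combination, and the poly I:C level came from 2 UMIs. In CD8 T cells Gbp2 was at 37.6 CPM in control and 38.8 CPM in poly I:C, and in regulatory T cells at 243 and 330 CPM. Over all members, Gbp2 in poly I:C was at 40.5 CPM and still called lower.

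Ccl5, Gadd45b and some heat shock genes were higher with poly I:C. Ccl5, a chemokine that attracts T cells and monocytes, was at 201 CPM in control and 553 CPM in poly I:C members, a ratio of 2.75 (1.97 to 3.88), but 1 member held 56.8% of the poly I:C UMIs. Without members that had a macrophage UMI (Csf1r, Adgre1 or C1q genes) the Ccl5 ratio was 0.663. Gadd45b, a stress and NF-kB response gene, was at 104 and 446 CPM, a ratio of 4.30 (2.80 to 6.75). Among the 10 genes with the highest ratios were also Ier5l (5.43) and Nmrk1, a kinase of the NAD salvage pathway (3.79). Of 7 compared heat shock genes, Dnaja1, Hsp90aa1 and Hspe1 were called higher and none lower, with a median of 0.57, although 46.5% of the Hsp90aa1 UMIs in poly I:C came from 1 member and Hspe1 was not called over all members. Without Il2ra or Ikzf2 members Hsp90aa1 and Dnaja1 were at 0.968 and 0.929 of control. Pik3cd, the leukocyte catalytic subunit of PI3 kinase, was among the 10 lowest, with 33 UMIs in control and 1 in poly I:C, a ratio of 0.0588 (0.00145 to 0.351).

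The combination compared with control gave higher Klf2, Satb1, Ikzf2 and Ccl5 and much lower Nrp1 and Itgb1. Of compared genes 7.23% were called higher and 9.59% lower (8.32% and 9.09% over all members), with a median log2 ratio of -0.06. Klf2 was at 87.5 CPM in control and 190 CPM in combination members, a ratio of 2.18 (1.35 to 3.59). Satb1 was at 207 and 401 CPM, a ratio of 1.94 (1.42 to 2.67). Members with a Pdcd1 UMI, in which both genes were lower, were 69.1% in control and 41.0% in the combination. Without Pdcd1, Satb1 was at 565 CPM in control and 624 in the combination, and Klf2 at 218 and 282. With Pdcd1, Satb1 was at 86.7 and 162 CPM, and Klf2 at 43.4 and 91.8. The part of the Pdcd1 share in both ratios was not tested. Of 10 compared naive and recirculating genes Ccr7, Klf2, Satb1, Foxp1 and Cd27 were called higher and Tcf7 lower, with a median of 0.78. Over all members Ccr7 was at 1.46 times the control and was not called, and without Il2ra or Ikzf2 members Cd27 was at 0.994.

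Nrp1, Itgb1 and Cxcr6 were lower in the combination than in control. Nrp1, a receptor of semaphorins and VEGF, was at 266 CPM in control, 126 in phenformin, 132 in poly I:C and 51.0 in the combination, a ratio of 0.192 (0.103 to 0.336). Itgb1, the integrin beta 1 chain, was at 574, 372, 314 and 174 CPM, a ratio of 0.302 (0.217 to 0.415). Cxcr6 was at 0.491 (0.366 to 0.653) of its control level, but at 1.34 without Il2ra or Ikzf2 members. Both single treatments had levels of Nrp1 and Itgb1 between control and combination. Vdr had 37 UMIs in control and 2 in the combination, a ratio of 0.0568 (0.00663 to 0.220) or 0.159 over all members, and Pgm2l1, a sugar phosphate enzyme, was at 237 CPM in control and 57.8 in the combination.

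**Figure D4:**
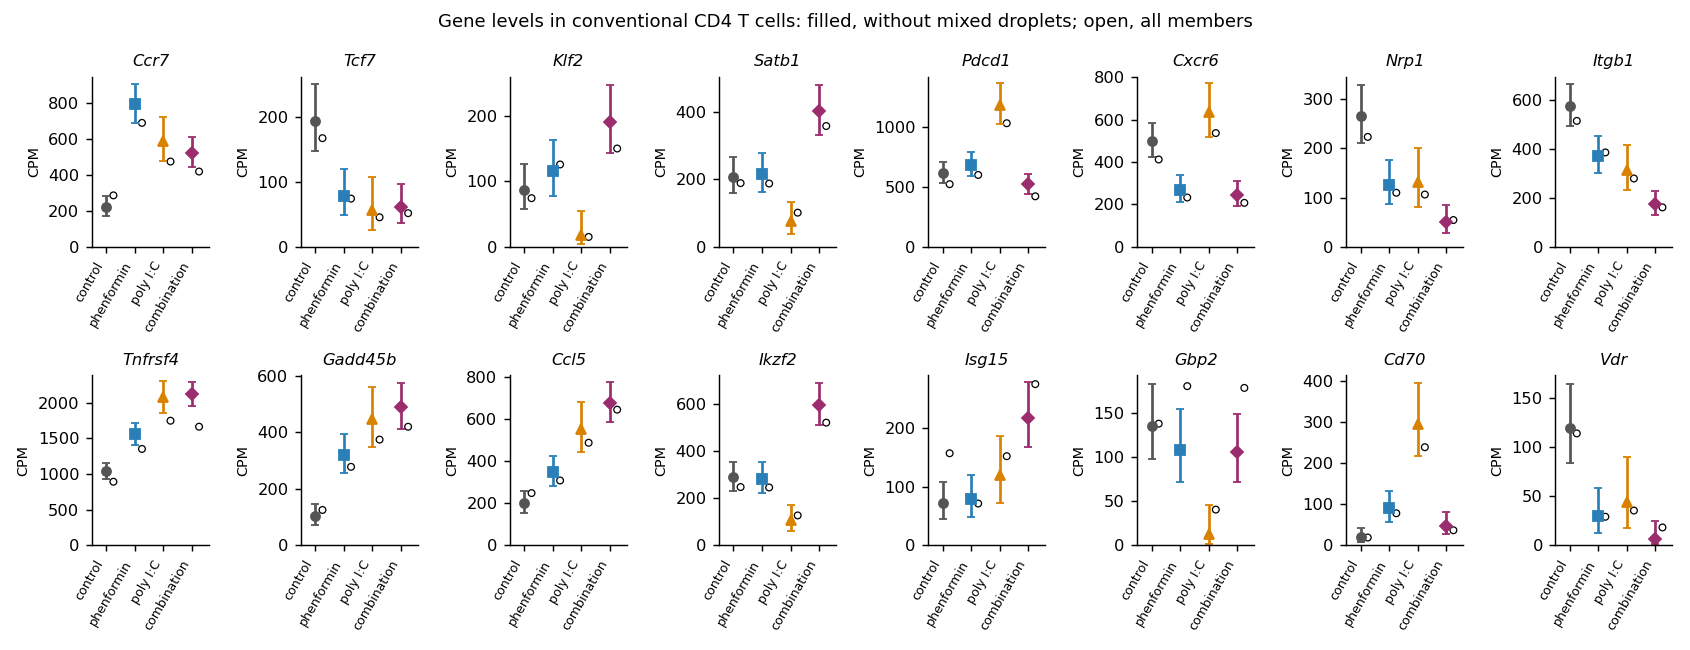
Filled points are CPM of 16 genes summed over conventional CD4 T cells without mixed droplets, with exact Poisson 95% intervals, and open circles are CPM over all members. Nrp1 and Itgb1 are lowest in the combination, Pdcd1 and Cd70 highest in poly I:C and Ccr7 lowest in control.

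Tnfrsf4, Gadd45b, Ccl5 and several regulatory T cell genes were higher in the combination. Tnfrsf4 was at 2123 CPM against 1040 CPM in control, a ratio of 2.04 (1.78 to 2.34), and Gadd45b at 490 against 104 CPM, a ratio of 4.72 (3.203 to 7.16). Ccl5 was at 674 CPM against 201 CPM in control, a ratio of 3.35 (2.51 to 4.54). Of 12 compared genes of T cell receptor activation and NFAT targets, Cd69, Tnfrsf4, Tnfrsf18 and Irf8 were called higher and Tnfrsf9 and Nfatc1 lower, with a median of 0.02. Over all members 2 were called higher and 2 lower. In macrophage-gated cells, which also express Ccl5, its summed level was higher in the combination too, and its share of the members' level is given above. The part of Ccl5 RNA from other cells was not tested. Ikzf2 was at 595 against 288 CPM, a ratio of 2.06 (1.59 to 2.70). Of 11 compared regulatory T cell genes, Ikzf2, Tnfrsf18, Tnfrsf4, Capg and Klrg1 were called higher and Nrp1, Tnfrsf9 and Socs2 lower, with a median of 0.58. Tnfrsf18 was not called over all members, Klrg1 was at 0.977 without macrophage UMIs, and Tnfrsf9 was at 1.06 under a stricter cell filter (500 genes, 10% mitochondrial UMIs). Of 16 compared immediate early genes, 8 were called higher, among them Pim1 (2.24), Ppp1r15a (2.67) and Nfkbia (1.69), and none lower. Of 10 compared heat shock genes 5 were called higher, among them Hspa1b, of which 1 member held 62.7% of the UMIs. Over all members 7 of 17 immediate early and 4 of 11 heat shock genes were called higher. Mxd1, a repressor that opposes Myc, was at 107 CPM in control, 227 in phenformin, 138 in poly I:C and 449 in the combination, and Areg, an epidermal growth factor receptor ligand, was at 61.6, 40.9, 25.2 and 286 CPM. Over all members Areg was at 329 CPM in poly I:C, so its low level there holds only without the mixed droplets.

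Both poly I:C-treated libraries were compared with each other for what phenformin added to poly I:C, and genes of the naive and interferon lists and some of the residency list differed. Of compared genes 9.97% were called higher in the combination than in poly I:C and 5.52% lower (12.1% and 4.92% over all members), with a median log2 ratio of 0.16. Klf2 had 3 UMIs in poly I:C and 56 in the combination, a ratio of 10.1 (3.28 to 50.5). Satb1 was at 75.4 and 401 CPM, a ratio of 5.32 (2.94 to 10.6) or 3.54 over all members, and Ikzf2 at 107 and 595 CPM, a ratio of 5.57 (3.38 to 9.78). Pdcd1 was at 1182 and 520 CPM, a ratio of 0.440 (0.353 to 0.548), and Cxcr6 at 635 and 245 CPM, a ratio of 0.386 (0.281 to 0.527). Of 10 compared tissue residency genes, Cxcr6, Rgs2, Itgb1 and Runx3 were called lower in the combination and Cd69 higher, with a median of -0.38. Satb1 was higher in the combination on both sides of the Pdcd1 split, at 31.7 against 162 CPM with Pdcd1 and 244 against 624 CPM without, and the first of these levels came from 4 UMIs. Of 9 compared naive and recirculating genes, 5 were called higher and none lower, with a median of 1.42, and Cd70 was among the 5 lowest genes at a ratio of 0.161 (0.0820 to 0.298).

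In the same comparison 6 of 8 GTPases and 6 of 14 type I interferon-stimulated genes were called higher in the combination and none lower, with medians of 1.30 and 0.95. Over control the combination lay closer. There 2 of 9 GTPases and 4 of 16 type I genes were called higher and none lower, beside 7.23% and 9.59% of all genes. The medians were 0.12 and 0.11, beside -0.06 for all genes (0.36, 0.28 and -0.03 over all members). Gbp7 was at 81.7 CPM in poly I:C and 204 CPM in the combination, a ratio of 2.50 (1.36 to 4.96), and Igtp at 163 and 330 CPM, a ratio of 2.02 (1.30 to 3.24). Isg15, a ubiquitin-like protein that interferon induces, was at 71.3 CPM in control, 78.1 in phenformin, 120 in poly I:C and 218 in the combination. Its ratios were 3.05 (1.86 to 5.21) over control (1.75 over all members), 1.82 (1.08 to 3.22) over poly I:C and 2.79 (1.68 to 4.81) over phenformin. The Isg15 level was thus highest in the combination, also in regulatory T cells (91.5, 151, 185 and 413 CPM) and CD8 T cells (54.0, 57.6, 57.6 and 84.5 CPM). Irf7 was called higher over poly I:C at 23 against 2 UMIs, but not over all members. With Lef1 cells included the combination over poly I:C ratio of Isg15 was 0.772 and the type I median over all members was 0.16 in place of 0.70, and without Il2ra or Ikzf2 members the Igtp ratio was 0.852.

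Interferon-activated transcription factors are known to bind a DNA element with GAAA repeats, and the promoters of Isg15, Gbp7 and Igtp are printed to show where its letters occur. The motif, GAAA followed after any 2 bases by GAAA again, was searched on both strands in the 250 bases before each gene start in RefSeq promoters of build GRCm38.p6, and was found in 978 of 32851 promoters (2.98%). It was found in 9 of the 10 GTPase promoters that the RefSeq table holds and in 11 of 27 promoters of the type I list. Of the genes of both lists called higher in the combination over poly I:C, Irf7, Samd9l and Shisa5 had no match. Gbp4 had no promoter there, and Bst2, Gbp2, Gbp3, Gbp5 and Ifi203, not printed, had at least 1 match. In the last 150 bases before the start, printed 5′ to 3′ on the gene's strand with matches in capitals, Isg15 has 3 overlapping matches and Gbp7 and Igtp have 1 each, that of Gbp7 on the reverse strand. The windows are chr4:156200819-156200968 for Isg15 (minus strand), chr3:142530186-142530335 for Gbp7 (plus strand) and chr11:58199406-58199555 for Igtp (plus strand).
Isg15: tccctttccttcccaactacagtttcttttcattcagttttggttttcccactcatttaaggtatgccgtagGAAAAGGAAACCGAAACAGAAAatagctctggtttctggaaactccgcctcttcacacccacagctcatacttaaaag
Gbp7: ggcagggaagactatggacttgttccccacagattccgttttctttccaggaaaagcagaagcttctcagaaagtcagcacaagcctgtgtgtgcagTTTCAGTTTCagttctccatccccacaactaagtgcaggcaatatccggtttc
Igtp: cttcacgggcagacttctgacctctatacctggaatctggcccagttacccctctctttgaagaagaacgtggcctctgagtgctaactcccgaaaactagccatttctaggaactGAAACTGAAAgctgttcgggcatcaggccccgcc
A match is a description of these letters and does not show that a factor bound there. A second motif, TTC followed after any 3 bases by GAA, occurs in the windows of Gbp7 and Igtp and is held by 7.02% of all promoters, 6 of 10 GTPase promoters and 5 of 27 type I promoters.

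The combination compared with phenformin differed in interferon, homing and mitochondrial genes. Of compared genes 7.49% were called higher and 5.97% lower (9.67% and 7.22% over all members), with a median log2 ratio of 0.02. Satb1 was at 216 CPM in phenformin and 401 CPM in the combination, a ratio of 1.86 (1.35 to 2.59), and Cd27 at 29.8 and 143 CPM, a ratio of 4.80 (2.23 to 11.8). Ccr7 was at 796 and 524 CPM, a ratio of 0.658 (0.532 to 0.814). Of 14 compared type I interferon-stimulated genes, Isg15, Isg20, Rtp4, Samd9l and Bst2 were called higher and none lower, with a median of 0.47. Of 8 compared GTPases, Gbp3, Gbp5 and Igtp were called higher and none lower, with a median of 0.56. The homing receptors Ccr2 (2.57), S1pr1 (2.86), S1pr4 (2.22), Itgb7 and Ramp1 were higher in the combination, so that 5 of 13 were called higher and 2 lower. Over all members Ramp1 was not called. Without Il2ra or Ikzf2 members Ccr2 was at 0.389, Itgb7 at 0.458 and Ccr7 at 1.89, so these 3 turned. Of 34 compared complex I genes none was called higher and Ndufa3, Ndufa7, Ndufb7 and Ndufb8 were called lower, with a median of -0.33. Ndufb7 and Ndufb8 were not called over all members, and Ndufa3 was at 1.07 without Il2ra or Ikzf2 members. Of 11 compared mitochondrially encoded genes, mt-Nd1, mt-Nd3 and mt-Nd4l were called lower, with a median of -0.52. The combination was also lower over control, with mt-Nd3, mt-Nd4 and mt-Co1 of 12 called lower, beside 9.59% of all genes. The median over control was -0.50, or -0.34 over all members, and that of phenformin over control was 0.05. mt-Nd3, a complex I subunit, was at 230 CPM in control, 405 in phenformin, 195 in poly I:C and 136 in the combination.

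The 2 by 2 layout gives the combination beyond the sum of both single treatments, as the log2 ratio of combination over phenformin minus that of poly I:C over control. Over 2715 genes its median was 0.16. It was 1.47 for 10 naive and recirculating genes, 1.05 for 9 interferon-inducible GTPases and 0.86 for 16 type I interferon-stimulated genes. Over all members the same 3 lists had 1.29, 1.09 and 1.08, beside 0.19 for all genes. These all-member medians moved with the rule for members: the naive list was at 0.55 with at least 2 Cd4 UMIs and at 2.31 without macrophage UMIs, and the type I list was at 0.35 with Lef1 cells included. The list of co-inhibitory receptors, 7 genes, was at 1.19 without mixed droplets. It was -0.53 for 34 complex I genes and -0.42 for 33 other nuclear respiratory genes. These are descriptions of 4 libraries, with no replicate behind any of the values.

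**Figure D5:**
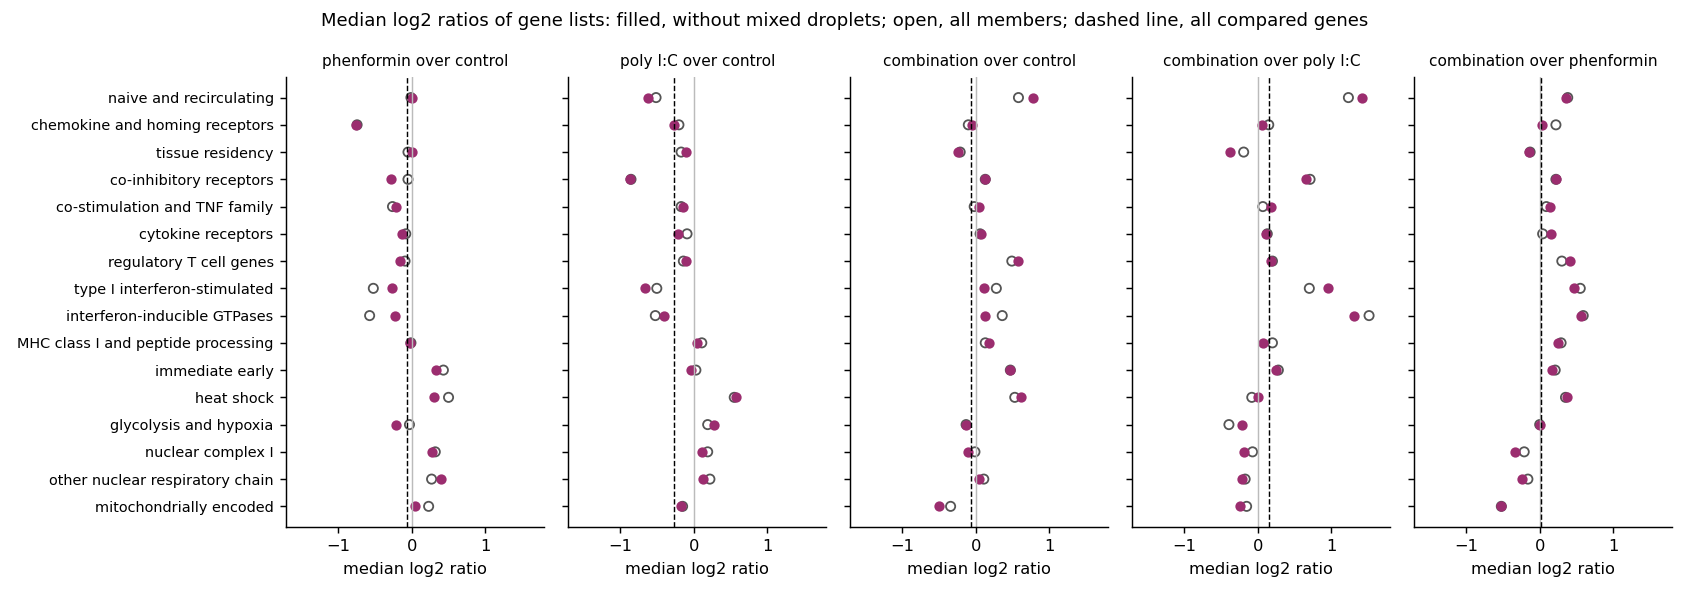
Points are the median log2 ratio of each gene list in conventional CD4 T cells, filled without mixed droplets and open over all members, and the dashed line is the median of all compared genes. Homing receptors lie at -0.76 for phenformin over control, and naive genes at 1.42 and GTPases at 1.30 for combination over poly I:C. For combination over control GTPases lie at 0.12.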

How the data were processed

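Gene by cell matrices of 4 libraries hold raw UMI counts, deposited by the authors without normalization, per the file headers and from the values. Cell Ranger 3.1.0 and the builds mm10 and GRCm38 are named in the submitters' processing notes, and no further setting is given in the sources used here. No other column of per-sample values was used.

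Members were picked by the count rule given above, and their UMIs were summed per library and scaled to 1e6 (CPM). With 1 library per treatment no test was possible. Ratios have exact 95% intervals conditional on the summed count, shares exact binomial (Clopper-Pearson) intervals, and list medians a pseudocount of 5 CPM. Intervals and floors cover counting error only. A ratio with 0 UMIs in 1 library takes the floor of 3 counts there. Named genes were the 10 highest and 10 lowest called ratios for each treatment over control, 5 each for the combination over a single treatment, up to 4 per gene list and a fixed set, of which some genes are not reported here. The members and the 33 gene lists were chosen with earlier results of these data known. The mixed droplet rule and the conditions on ranked genes were added after the data were seen. Software was Python 3.11.15, numpy 2.4.6, scipy 1.17.1, pandas 2.3.3, scanpy 1.11.5 (Scrublet), matplotlib 3.10.9, R 4.3.3 and edgeR 4.0.16, which was used for TMM factors only. The ratio code was tested on simulated counts.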

Additional observations from a re-analysis of the deposited data

How the results depend on the processing

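Every value here rests on 1 library per treatment, so no replicate could be left out and the spread between tumours is unknown. No paired analysis was possible because each treatment has 1 library and no test was made. The poly I:C members had the smallest summed count, 159060 UMIs in 34 members without mixed droplets. Of 103 followed gene ratios over all members, 1005 values under other settings kept the call or stayed not called, 168 kept direction but lost the call, 40 gained it and 19 turned. For a ratio not called over all members, a turn was counted only if it was called the other way. Direction was not checked where such a ratio stayed not called. Of list medians 159 moved by at most 0.3 log2, of counts 93 stayed within 1.5 times, and of shares 20 stayed within the counting interval. The poly I:C share was the lowest under each setting. The cause of the changes was not tested. Mixed droplets and the deepest 10% were settings added after the data were seen. The changed values over all members follow, named by their comparison. Without members holding a UMI of Csf1r, Adgre1 or C1q genes, shares were 0.64% (control), 0.624% (phenformin), 0.272% (poly I:C) and 0.593% (combination). Genes called higher were 114 (poly I:C/control), 157 (combination/poly I:C) and 162 (combination/phenformin), and genes called lower were 149 (phenformin/control), 194 (poly I:C/control), 188 (combination/control) and 84 (combination/poly I:C). List medians were -0.42 (homing, phenformin/control), 1.10 (naive, combination/control), 1.71 (naive, combination/poly I:C), 0.18 (type I, combination/poly I:C), 0.25 (naive, poly I:C/control), -1.83 (GTPase, poly I:C/control), 2.31 (naive, beyond the sum) and 1.65 (GTPase, beyond the sum). Gene ratios that turned were Tcf7 1.05 (poly I:C/control), Ccl5 0.663 (poly I:C/control) and Klrg1 0.977 (combination/control). With at least 2 Cd4 UMIs, shares were 0.788% (control), 0.55% (phenformin), 0.302% (poly I:C) and 0.484% (combination). Genes called higher were 99 (phenformin/control), 111 (poly I:C/control), 180 (combination/control), 149 (combination/poly I:C) and 150 (combination/phenformin), and genes called lower were 170 (phenformin/control), 195 (poly I:C/control), 196 (combination/control), 84 (combination/poly I:C) and 111 (combination/phenformin). List medians were 0.89 (naive, combination/poly I:C), -0.10 (naive, poly I:C/control), -0.89 (GTPase, poly I:C/control), 0.55 (naive, beyond the sum) and 1.67 (GTPase, beyond the sum). Without members holding an Il2ra or Ikzf2 UMI, shares were 0.656% (control), 0.385% (phenformin), 0.272% (poly I:C) and 0.508% (combination). Genes called higher were 113 (phenformin/control), 144 (combination/control), 125 (combination/poly I:C) and 152 (combination/phenformin), and genes called lower were 140 (phenformin/control) and 215 (poly I:C/control). List medians were -0.31 (homing, phenformin/control), 0.95 (naive, combination/control), -0.83 (naive, poly I:C/control), -0.10 (type I, poly I:C/control), -1.52 (GTPase, poly I:C/control) and 1.89 (naive, beyond the sum). Gene ratios that turned were Ccr2 1.01 (phenformin/control), Ndufa3 0.938 (phenformin/control), Cd70 0.821 (phenformin/control), Hsp90aa1 0.968 (poly I:C/control), Dnaja1 0.929 (poly I:C/control), Cd27 0.994 (combination/control), Cxcr6 1.34 (combination/control), Igtp 0.852 (combination/poly I:C), Ccr7 1.89 (combination/phenformin), Ccr2 0.389 (combination/phenformin), Itgb7 0.458 (combination/phenformin) and Ndufa3 1.07 (combination/phenformin). With Lef1 UMIs allowed, shares were 1.74% (control), 1.49% (phenformin), 0.831% (poly I:C) and 1.83% (combination). Genes called lower were 571 (combination/control) and 215 (combination/poly I:C). List medians were 0.13 (immediate early, combination/control), 0.62 (GTPase, combination/poly I:C), 0.16 (type I, combination/poly I:C), -0.07 (type I, poly I:C/control), 0.74 (GTPase, beyond the sum) and 0.35 (type I, beyond the sum). Gene ratios that turned were Isg15 0.772 (combination/poly I:C). Without the deepest 10% of members, genes called higher were 104 (phenformin/control), 204 (combination/poly I:C) and 181 (combination/phenformin), and genes called lower were 139 (phenformin/control), 272 (poly I:C/control) and 133 (combination/phenformin). List medians were -0.36 (homing, phenformin/control), 0.89 (naive, combination/control), 1.15 (GTPase, combination/poly I:C) and 1.73 (naive, beyond the sum). With members thinned to 2000 UMIs, genes called higher were 56 (phenformin/control), 89 (poly I:C/control), 127 (combination/control), 102 (combination/poly I:C) and 101 (combination/phenformin), and genes called lower were 64 (phenformin/control), 112 (poly I:C/control), 111 (combination/control), 55 (combination/poly I:C) and 61 (combination/phenformin). List medians were 0.33 (naive, poly I:C/control), -0.02 (type I, poly I:C/control), -0.82 (GTPase, poly I:C/control) and 0.76 (GTPase, beyond the sum). Gene ratios that turned were Cycs 0.939 (phenformin/control). With 2-fold in place of 1.5-fold, genes called higher were 75 (phenformin/control), 73 (poly I:C/control) and 154 (combination/control), and genes called lower were 153 (phenformin/control), 166 (combination/control), 58 (combination/poly I:C) and 107 (combination/phenformin). With a minimum of 100 CPM, genes called higher were 167 (combination/control), 195 (combination/poly I:C) and 171 (combination/phenformin), and genes called lower were 152 (phenformin/control), 265 (poly I:C/control) and 177 (combination/control). Without mixed droplets, genes called higher were 195 (combination/poly I:C) and 178 (combination/phenformin), and genes called lower were 142 (combination/phenformin). With the mean over members of their CPM, list medians were -0.35 (homing, phenformin/control) and 1.62 (naive, combination/poly I:C). Gene ratios that turned were Ccr2 1.4 (phenformin/control). Under a stricter cell filter (500 genes, 10% mitochondrial UMIs), gene ratios that turned were Tnfrsf9 1.06 (combination/control).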
